A study of Mus musculus with 6 samples.

Results

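The unfolded protein response and the integrated stress response were followed here through 36 genes in islet RNA-seq libraries, chosen by name as the genes of both pathways. The 36 symbols matched 36 of the 55421 gene IDs in the count tables, and all 36 passed the filter on low counts that left 17016 genes for testing. A further ID that carries the symbol Ddit3, with 105 bases of exon, had 0 counts in every library and was not used. Pancreatic islets came from wild-type C57BL/6 mice. The vehicle group and the group given the ligand insB:9-23, named for a stretch of the insulin B chain, held 3 libraries each. Dose, route and duration, the age and sex of the mice, and whether mice or isolated islets received the ligand are not stated in the labels. The labels do not say which libraries come from separate mice, and the p-values therefore describe the variation among these 6 libraries only, which may be technical.

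The unfolded protein response is the programme by which a cell matches the folding capacity of its endoplasmic reticulum (ER) to the load of secreted protein. IRE1 (gene Ern1) splices the messenger of XBP1, ATF6 is cut from the membrane, and both then drive genes for chaperones, oxidoreductases and the disposal of misfolded protein. PERK (gene Eif2ak3) phosphorylates the translation factor eIF2, which slows protein synthesis and favours translation of ATF4, the factor behind genes of amino acid supply and of stress control. That branch is shared with other kinases and is then called the integrated stress response. Beta cells depend on both branches because insulin is made at a very high rate. Gene counts see the amount of messenger only, and neither the splicing of Xbp1, the cleavage of ATF6 nor the translation of Atf4 can be read from them.

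Total counts per library lay between 52052808 and 58880189, and 3 counts corresponded to 0.0475 to 0.0655 CPM (counts scaled to the TMM-adjusted size of each library). Islet RNA was present, with the insulin gene Ins2 at 65049 ± 5547 CPM with vehicle and 69956 ± 7059 CPM with insB:9-23 (SD, n = 3). Exocrine RNA was present too. The 26 acinar markers made up 14.8% to 17.2% of counts across the vehicle libraries. The shares for insB:9-23 replicates 1 to 3 were 18.4%, 16.2% and 24.7%. None of the 26 was at 0 in all libraries, and acinar cells carry a large ER of their own. The 15 beta cell markers took 12.1% to 13.9% in vehicle and 12.0%, 13.9% and 9.64% in insB:9-23 replicates 1 to 3. Mafa, 1 of those 15, had 0 counts in every library, and Nkx6-1 ran from 31.8 to 322 CPM. B and plasma cell markers, another secretory lineage, took 0.0019% to 0.0171% of counts over the 6 libraries. Libraries of whole islets cannot tell fewer cells of a type from less RNA per cell.

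None of the 36 genes passed the edgeR quasi-likelihood test at an adjusted p of 0.05, against 14 of 17016 genes tested (0.0823%). At an unadjusted p below 0.05 there were 2 of 36 (5.56%), Atf4 and Ddit3, both higher after insB:9-23, and the share over all genes was 5.55% (2.74% higher, 2.81% lower). DESeq2 called 0 of the 36 and 0.682% of all genes. The groups did not overlap for 4 of the 36 genes (Atf4 and Ddit3 higher, Chac1 and Hyou1 lower), or 11.1%, where 13.5% of all genes tested had groups that did not overlap. By each of these counts the pathway genes stood near the background. The median log2 fold over the 36 was 0.02, with 19 above 0 and 17 below, and the median over all genes was 0.01, with 51.5% above 0.

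**Figure D1:**
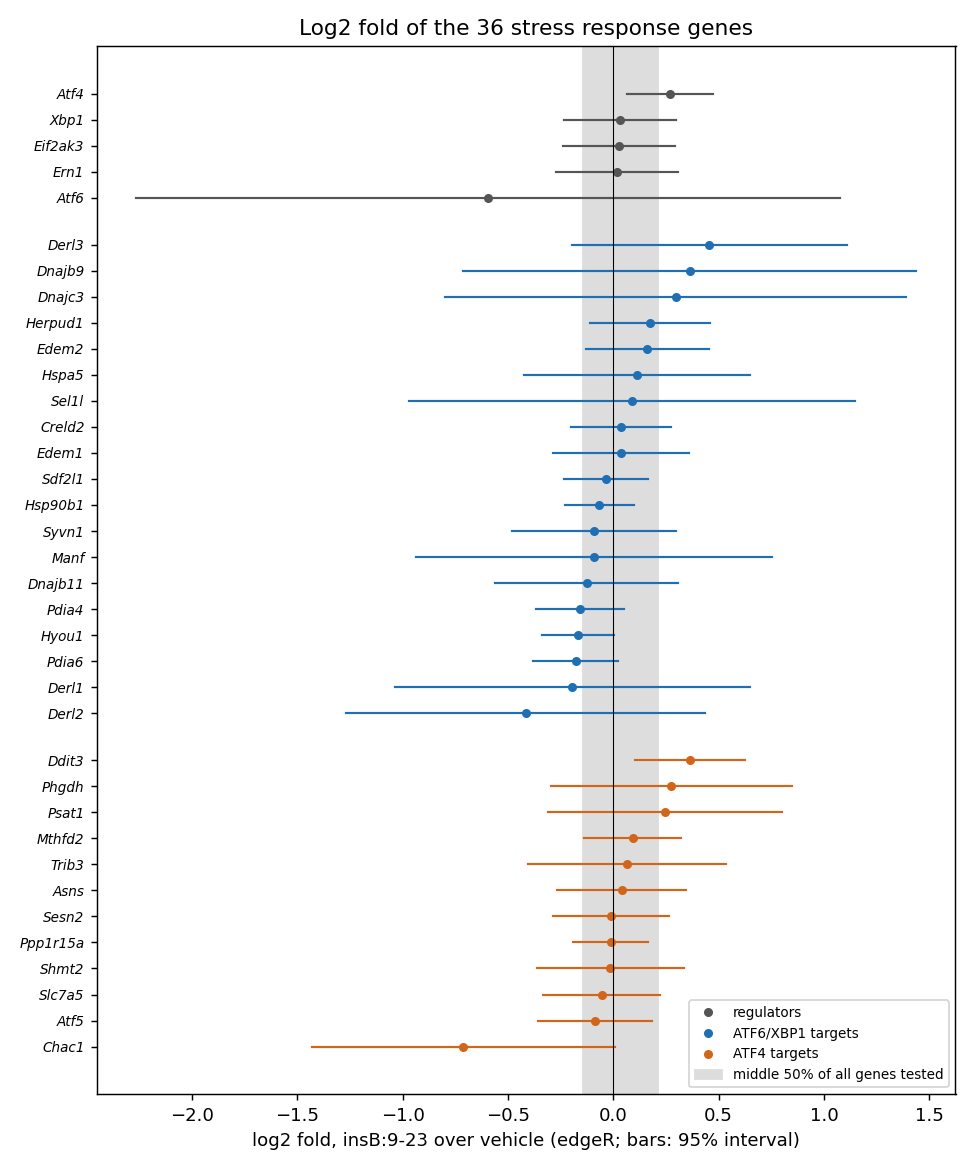
Log2 fold of each of the 36 genes, insB:9-23 over vehicle (x axis, edgeR), with 95% intervals as bars and genes in rows by role. The grey band is the middle 50% of all 17016 genes tested. Only the intervals of Atf4 and Ddit3 leave 0, before any adjustment for the number of genes, and the longest bars belong to Atf6, Dnajb9, Dnajc3 and Sel1l.

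Of the 5 sensors and factors at the head of the pathways, Ern1, Xbp1 and Eif2ak3 had log2 folds near 0. Ern1, the kinase and nuclease that senses misfolded protein, was at 109, 116 and 104 CPM in vehicle replicates 1 to 3, against 116, 92.8 and 123 CPM in insB:9-23 replicates 1 to 3. Xbp1, the factor it activates, was at 192, 190 and 210 CPM with vehicle and 198, 176 and 231 CPM with insB:9-23. Eif2ak3, the PERK kinase, was at 84.7, 101 and 85.2 CPM and at 94.4, 82.1 and 99.5 CPM. In all 3 genes the groups overlapped and replicate 2 was the lowest of the insB:9-23 libraries. Their log2 folds were 0.02 ± 0.12 for Ern1, 0.03 ± 0.11 for Xbp1 and 0.03 ± 0.11 for Eif2ak3 (SE; edgeR adjusted p = 0.99, 0.978 and 0.981). The 95% intervals, as folds, ran from 0.829 to 1.24, from 0.849 to 1.23 and from 0.847 to 1.23.

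Atf6, the membrane-bound factor, behaved differently from those 3. It stood at 53.2, 167 and 182 CPM in vehicle replicates 1 to 3, against 45.9, 167 and 53.7 CPM in insB:9-23 replicates 1 to 3. Each group thus held libraries near 50 and libraries near 170 CPM, with a 3.1-fold gap between the 3 lower and the 3 higher libraries and at most 1.17-fold on either side of it. The log2 fold between the groups was -0.59 ± 0.68 (SE; edgeR adjusted p = 0.924), and its interval, from 0.208-fold to 2.11-fold, leaves the direction undetermined.

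Atf4, the factor of the integrated stress response, lies on chromosome 15 (80255184 to 80257541, GRCm38, GENCODE M21). It was at 195, 201 and 174 CPM in vehicle replicates 1 to 3, against 217, 224 and 247 CPM in insB:9-23 replicates 1 to 3. Every insB:9-23 library was above every vehicle library. The log2 fold was 0.27 ± 0.08 (SE; edgeR unadjusted p = 0.0176, adjusted p = 0.881), with an interval of 1.05-fold to 1.39-fold. The unadjusted p was below 0.05 in 12 of 16 alternative analyses. Among those that missed it, the log2 fold was 0.215 without insB:9-23 replicate 3. It was 0.223 when the mean log2 level of the acinar markers entered the fit, and 0.108 by library totals alone. Under that last scaling the median of all genes moved to -0.145.

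Ddit3 encodes CHOP, a factor induced by ATF4 and linked to death of stressed beta cells, and lies on chromosome 10 (127290774 to 127296288). Its level was low, at 15.3, 13.6 and 15.5 CPM with vehicle, against 18.1, 20.8 and 18.3 CPM with insB:9-23, again with every insB:9-23 library above every vehicle library. The log2 fold was 0.37 ± 0.11 (SE; edgeR unadjusted p = 0.0139, adjusted p = 0.881), with an interval of 1.08-fold to 1.54-fold. The unadjusted p stayed below 0.05 without each library in turn, and was above it, among others, when counts were scaled to library totals. Of its 1713 exon bases, 4.0% overlap Mars on the opposite strand, and 6.1% the short second Ddit3 model.

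The other stress control genes downstream of ATF4 had no unadjusted p below 0.05 in the main edgeR test. Chac1, a glutathione-degrading enzyme that is a sensitive ATF4 and CHOP target, was at 17.2, 14.9 and 13.1 CPM with vehicle, against 12.0, 9.96 and 5.59 CPM with insB:9-23. All insB:9-23 libraries lay below all vehicle libraries, opposite in sign to Atf4 and Ddit3. Its log2 fold was -0.71 ± 0.29 (SE; edgeR unadjusted p = 0.0518, adjusted p = 0.881), and -0.451 without insB:9-23 replicate 3, the library with the lowest level and the largest acinar share. It was -0.355 in the fit that held the acinar level as a covariate. With each library left out, the log2 fold of Chac1 ran from -0.948 to -0.451. Its unadjusted p was below 0.05 in 7 of 16 alternative analyses. Trib3, a pseudokinase that restrains ATF4, was the least abundant of the 36 per length and stood at 4.38, 4.82 and 3.77 CPM with vehicle, against 5.26, 4.46 and 3.85 CPM with insB:9-23. Ppp1r15a (GADD34), which brings the phosphatase back to eIF2, was at 91.4, 91.8 and 85.3 CPM and at 83.4, 95.0 and 87.7 CPM, and its interval ran from 0.875-fold to 1.12-fold. Sesn2, a brake on growth signalling, had a log2 fold of -0.01 ± 0.11, and Atf5, a related factor, of -0.09 ± 0.11 (SE; edgeR adjusted p = 0.993 and 0.931).

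**Figure D2:**
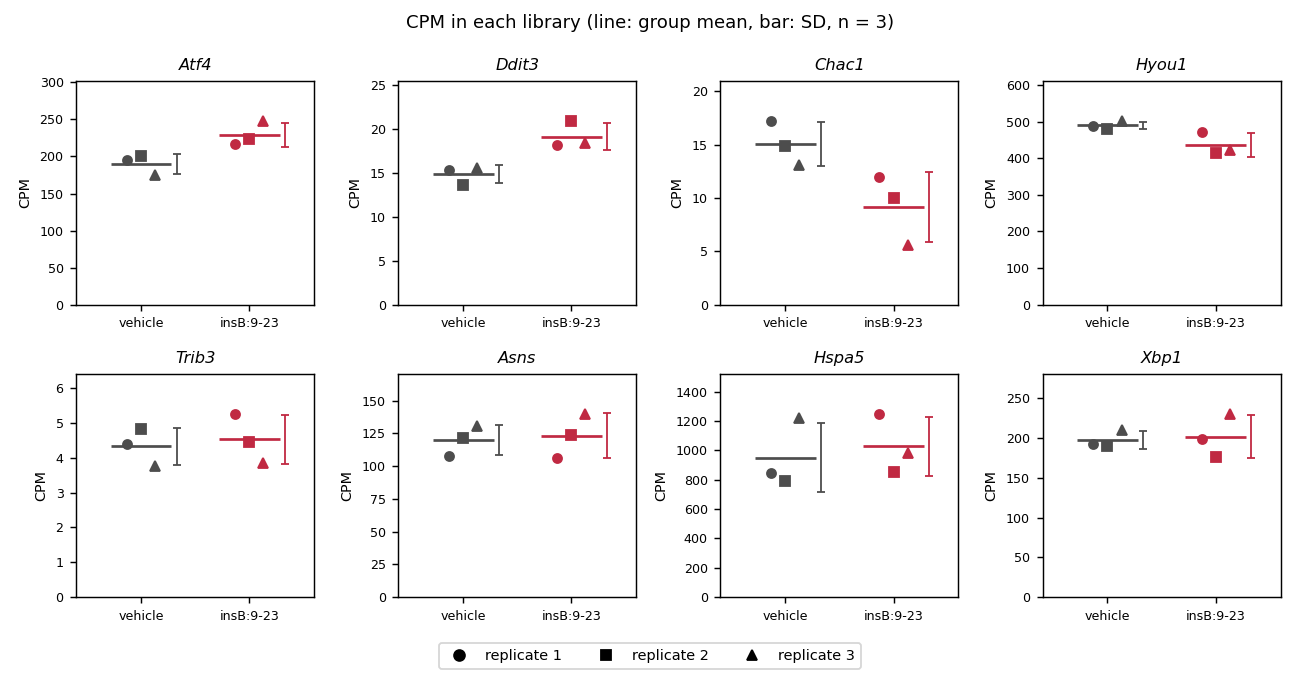
CPM (y axes, from 0) of 8 genes in each library, by group (x axes), with replicate numbers as symbols, group means as lines and SD as bars. Atf4 and Ddit3 are higher in all 3 insB:9-23 libraries, Chac1 and Hyou1 are lower in all 3, and Trib3, Asns, Hspa5 and Xbp1 overlap.

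The ATF4 targets of amino acid and one-carbon metabolism overlapped between the groups without exception. Asns, asparagine synthetase, was at 108, 121 and 131 CPM with vehicle and 106, 124 and 140 CPM with insB:9-23. Slc7a5, a carrier of large neutral amino acids, was at 94.4 ± 9.55 and 90.8 ± 9.51 CPM (SD, n = 3). The enzymes of serine synthesis were Phgdh, at 59.1 ± 4.83 and 71.6 ± 23.5 CPM, and Psat1, at 14.2 ± 3.20 and 16.8 ± 3.36 CPM. The higher mean of Phgdh rested on insB:9-23 replicate 3, at 98.4 CPM, and without that library its log2 fold was -0.020. The mitochondrial folate enzymes Shmt2 (26.4 ± 4.19 and 26.1 ± 2.47 CPM) and Mthfd2 (50.7 ± 1.06 and 54.0 ± 5.87 CPM) had log2 folds of -0.01 ± 0.14 and 0.09 ± 0.09 (SE; edgeR adjusted p = 0.992 and 0.913).

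Some ATF6 and XBP1 targets carry a known control element in the promoter, which is shown here because no ATF4 target had a match to it in the windows searched. As it was picked for that outcome, the shares below do not test the split into 2 lists. Promoter windows of 300 bases (250 before to 50 after the start, RefSeq, GRCm38.p6) were found for 31 of the 36 genes. The ER stress response element (ERSE), searched as CCAAT and CCACG with any 9 bases between them, on both strands, was in the window of 7 of 16 ATF6/XBP1 targets (43.8%), 0 of 11 ATF4 targets and 0.137% of all 27025 genes with a window. The C/EBP-ATF response element (CARE), searched as TGATGNAA on both strands, was in 3 of 11 ATF4 targets (27.3%), 1 of 16 ATF6/XBP1 targets (6.25%) and 4.51% of all genes. A shorter form, ERSE-II (ATTGG and CCACG with any 1 base between them, both strands), was in Dnajb11 and Herpud1 and in 0.0444% of all genes, and the XBP1 core TGACGTGG, also on both strands, in none of the 31. The ERSE matches follow on the strand of the motif with 6 bases on either side, the fixed letters in capitals, and Hsp90b1, which has a pair of them, on 2 lines:
Hspa5: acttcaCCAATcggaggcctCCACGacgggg
Hsp90b1: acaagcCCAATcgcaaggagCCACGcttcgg
Hsp90b1: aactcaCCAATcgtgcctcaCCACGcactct
Pdia6: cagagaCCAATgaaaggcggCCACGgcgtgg
Dnajc3: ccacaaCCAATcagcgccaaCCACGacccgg
Creld2: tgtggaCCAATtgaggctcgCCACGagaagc
Syvn1: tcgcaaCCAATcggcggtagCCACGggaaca
Derl3: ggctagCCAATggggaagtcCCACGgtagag
The CARE matches are shown the same way, with Herpud1 as the gene that has both elements:
Asns: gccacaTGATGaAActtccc
Chac1: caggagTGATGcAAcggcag
Trib3: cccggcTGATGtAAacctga
Herpud1: gcgggcTGATGcAAcccgcc

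Members with the same element did not share a direction. The 7 genes with an ERSE had a median log2 fold of 0.04, from -0.18 to 0.46, with 4 above 0. The 4 genes with a CARE had a median of 0.05, from -0.71 in Chac1 to 0.18 in Herpud1. A match is a description of letters, and binding was not measured.

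Hspa5, the ER chaperone BiP, is the usual gauge of the response. Its promoter window, chr2:34771840-34772139 on the plus strand, is printed with the ERSE match in capitals, 65 bases before the start:
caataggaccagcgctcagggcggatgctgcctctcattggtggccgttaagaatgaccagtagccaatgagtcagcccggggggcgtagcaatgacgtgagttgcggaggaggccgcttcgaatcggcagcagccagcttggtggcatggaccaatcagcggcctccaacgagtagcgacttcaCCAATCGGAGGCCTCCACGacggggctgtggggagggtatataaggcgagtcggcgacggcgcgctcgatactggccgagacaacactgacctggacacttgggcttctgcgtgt
Hspa5 was at 844, 789 and 1220 CPM in vehicle replicates 1 to 3, against 1250, 855 and 983 CPM in insB:9-23 replicates 1 to 3. The highest vehicle library and the highest insB:9-23 library were nearly level, and the groups overlapped. The log2 fold was 0.11 ± 0.22 (SE; edgeR adjusted p = 0.952), with an interval of 0.746-fold to 1.57-fold. Without insB:9-23 replicate 1 it was -0.047.

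The other chaperones and their partners were steadier than Hspa5 in part. Hsp90b1 (GRP94) was the most abundant of the 36 genes per exon length, at 230 CPM per kilobase in vehicle, beside 225 for Hspa5 and 105 for Pdia6. Its levels of 885, 917 and 985 CPM with vehicle and 865, 916 and 881 CPM with insB:9-23 gave an interval of 0.854-fold to 1.07-fold. Sdf2l1 and Creld2, small ER proteins that respond strongly to misfolded protein, had intervals of 0.851-fold to 1.12-fold and 0.872-fold to 1.21-fold. Over all 36 genes, 23 had an interval within 1.5-fold in either direction and 28 within 2-fold.

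Hyou1, an HSP70-like chaperone and exchange factor of BiP, lies on chromosome 9 (44379490 to 44392369). It was at 487, 481 and 501 CPM with vehicle and 472, 414 and 421 CPM with insB:9-23, with every insB:9-23 library below every vehicle library. The log2 fold was -0.17 ± 0.07 (SE; edgeR unadjusted p = 0.0519, adjusted p = 0.881). The protein disulfide isomerases Pdia6 (361, 387 and 434 CPM with vehicle, against 342, 364 and 339 CPM with insB:9-23) and Pdia4 (161, 154 and 176 CPM, then 148, 157 and 135 CPM) had log2 folds of -0.18 ± 0.08 and -0.16 ± 0.09 (SE; edgeR adjusted p = 0.881 for both). In both isomerases the groups overlapped by 1 library, insB:9-23 replicate 2.

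The BiP co-chaperones varied more. Dnajb9 (ERdj4) was at 89.9, 89.4 and 96.9 CPM with vehicle, against 72.1, 75.5 and 208 CPM with insB:9-23. Its insB:9-23 replicate 3 was 2.14-fold above the next library, and without it the log2 fold moved from 0.36 to -0.316. Dnajc3 (p58IPK, also an inhibitor of PERK) was at 182, 165 and 409 CPM with vehicle and 369, 370 and 190 CPM with insB:9-23. As with Atf6, 3 libraries were high and 3 low in Dnajc3, but vehicle replicate 3 and insB:9-23 replicates 1 and 2 were the high ones. Dnajb11 (ERdj3) was at 79.6 ± 18.7 and 73.0 ± 3.45 CPM, and Manf, a secreted ER stress protein that protects beta cells, at 167 ± 55.6 and 157 ± 57.9 CPM (SD, n = 3). Manf was highest in vehicle replicate 3 (226 CPM) and insB:9-23 replicate 2 (223 CPM).

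Genes for the disposal of misfolded protein (ER-associated degradation) overlapped between the groups as well. Herpud1, a scaffold of the export complex, was at 198, 159 and 186 CPM with vehicle and 203, 183 and 227 CPM with insB:9-23, with a log2 fold of 0.18 ± 0.12 (SE; edgeR adjusted p = 0.884). Edem2, which trims mannose from misfolded glycoproteins, was at 154, 152 and 143 CPM and at 170, 141 and 192 CPM. Its relative Edem1 was at 80.1 ± 3.66 and 82.1 ± 13.8 CPM, and the ubiquitin ligase gene Syvn1 (HRD1) at 80.3 ± 8.71 and 75.3 ± 14.0 CPM (SD, n = 3). Sel1l, the partner of HRD1, was at 142, 294 and 284 CPM with vehicle and 149, 234 and 382 CPM with insB:9-23. Replicate 1 of each group was the low library.

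The derlins, membrane proteins of the same export channel, each had insB:9-23 replicate 1 among the libraries that stood apart, though not in the same direction. Derl1 was high in vehicle replicate 3 (130 CPM) and insB:9-23 replicate 1 (124 CPM) and between 62.1 and 85.0 CPM elsewhere. Derl2 was at 98.1, 82.0 and 106 CPM with vehicle, against 37.2, 88.8 and 88.1 CPM with insB:9-23, so the low mean came from insB:9-23 replicate 1. Derl3 was at 11.0, 12.4 and 13.3 CPM with vehicle, against 23.0, 11.2 and 16.1 CPM with insB:9-23. Replicate 1 of the insB:9-23 group was the highest for Derl3 and the lowest for Derl2.

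**Figure D3:**
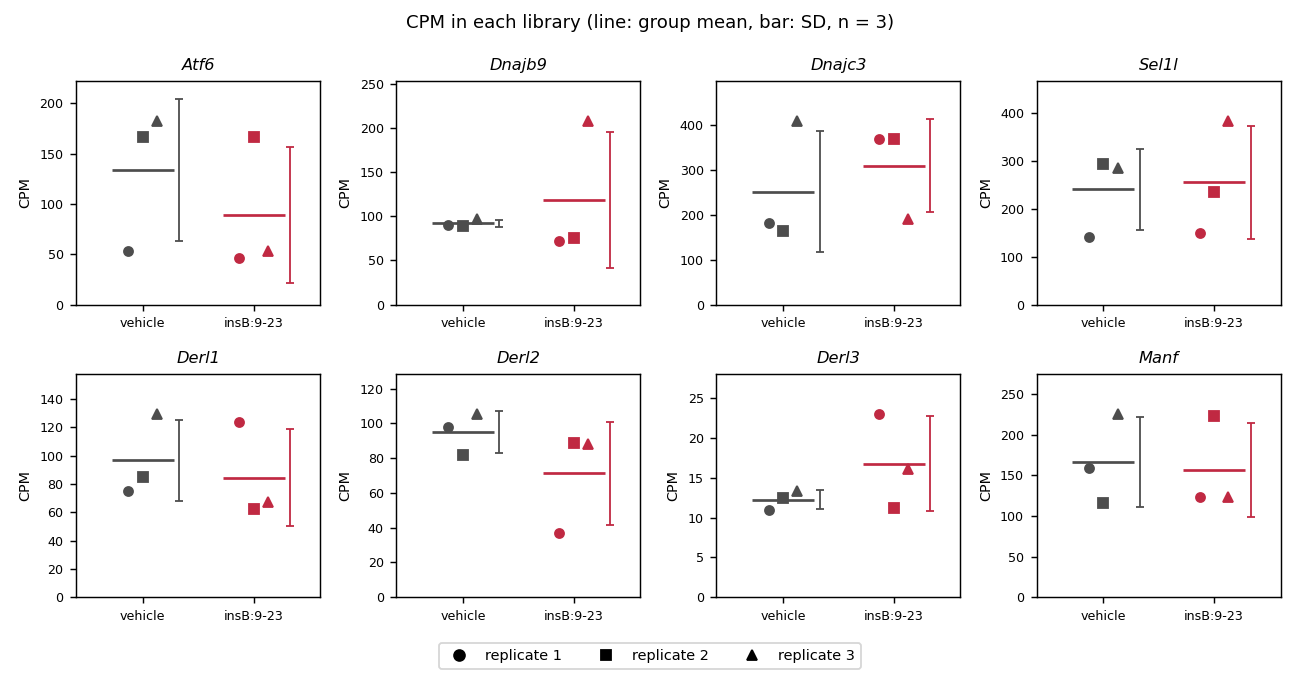
CPM (y axes, from 0) of 8 genes with a large spread between libraries, by group (x axes), with replicate numbers as symbols, group means as lines and SD as bars. High and low libraries occur in both groups for Atf6, Dnajc3, Sel1l, Derl1 and Manf, and different libraries are high in different genes.

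Some members differed widely among the 6 libraries, taken without regard to group. Of 35 genes with a mean of at least 10 CPM, 8 differed 2-fold or more between their highest and lowest library (22.9%), against 17% of 8376 genes tested at that level. They were Atf6, 6 of 19 ATF6/XBP1 targets (Dnajb9, Dnajc3, Sel1l, Derl1, Derl2 and Derl3) and 1 of 11 ATF4 targets (Chac1). The median ratio of highest to lowest library was 1.52 for ATF6/XBP1 targets, 1.32 for ATF4 targets and 1.34 for all genes at that level. None of the 36 genes was at 0 in any library.

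**Figure D4:**
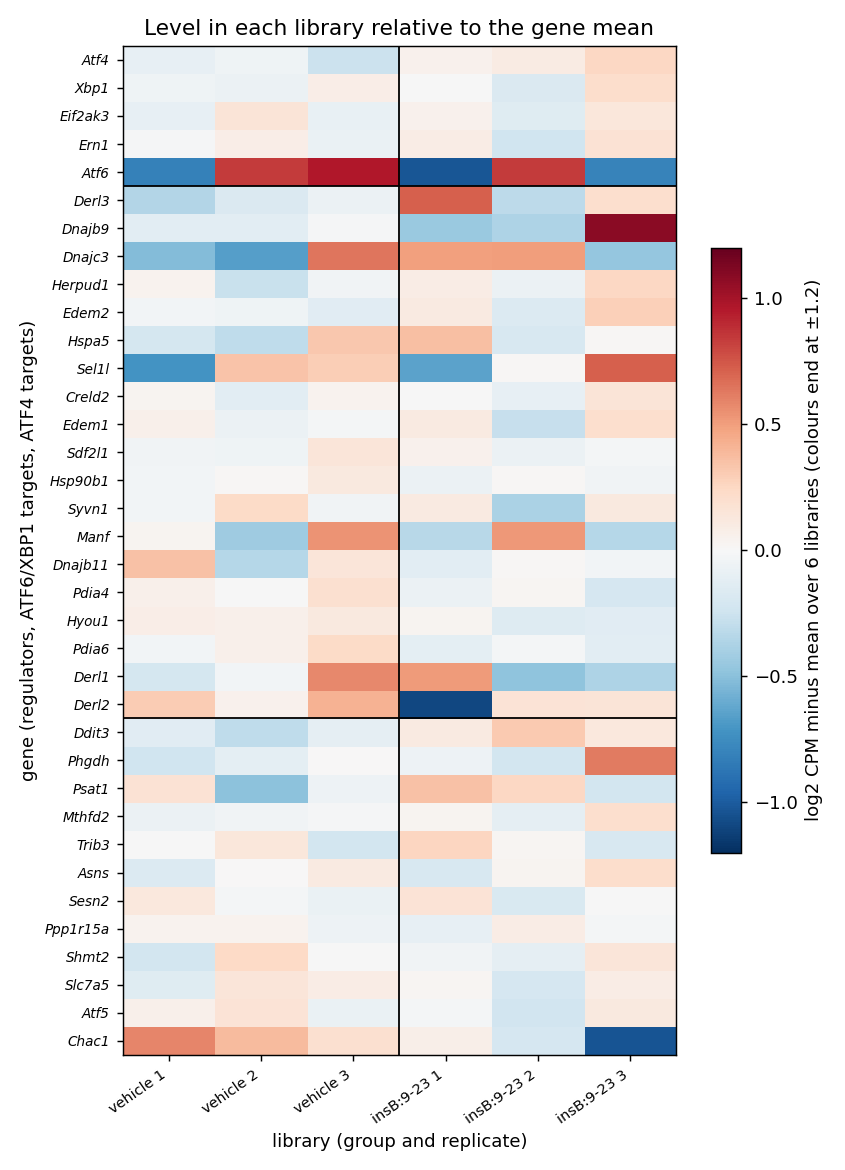
Level of each of the 36 genes (rows, by role and by fold within a role) in each library (columns), as log2 CPM minus the gene's mean over the 6 libraries. The strongest colours fall on 1 library in Dnajb9, Derl2 and Chac1, Atf6 and Dnajc3 each part into 3 high and 3 low libraries, and no column is of 1 colour.

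Set against each other, the ATF6/XBP1 targets and the ATF4 targets did not part. The 19 ATF6/XBP1 targets had a median log2 fold of -0.03 (9 above 0, 10 below, middle 50% from -0.14 to 0.14), and none had an unadjusted p below 0.05. The 12 ATF4 targets had a median of 0.01 (6 above 0, 6 below, middle 50% from -0.02 to 0.13), and 1 had an unadjusted p below 0.05. The medians differed by -0.048, which is smaller than the spread of 0.128 (SD, log2) between libraries of a group in the difference of the lists' mean levels. Mean levels of the ATF6/XBP1 targets, as log2(CPM + 0.5), were 7.11, 7.08 and 7.36 in vehicle and 7.16, 7.11 and 7.26 after insB:9-23. Those of the ATF4 targets were 5.23, 5.24 and 5.21 in vehicle and 5.28, 5.19 and 5.24 after insB:9-23. The ATF4 list varied less between libraries (SD 0.034) than the ATF6/XBP1 list (SD 0.121), and without vehicle replicate 3 the difference of the medians was 0.092.

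**Figure D5:**
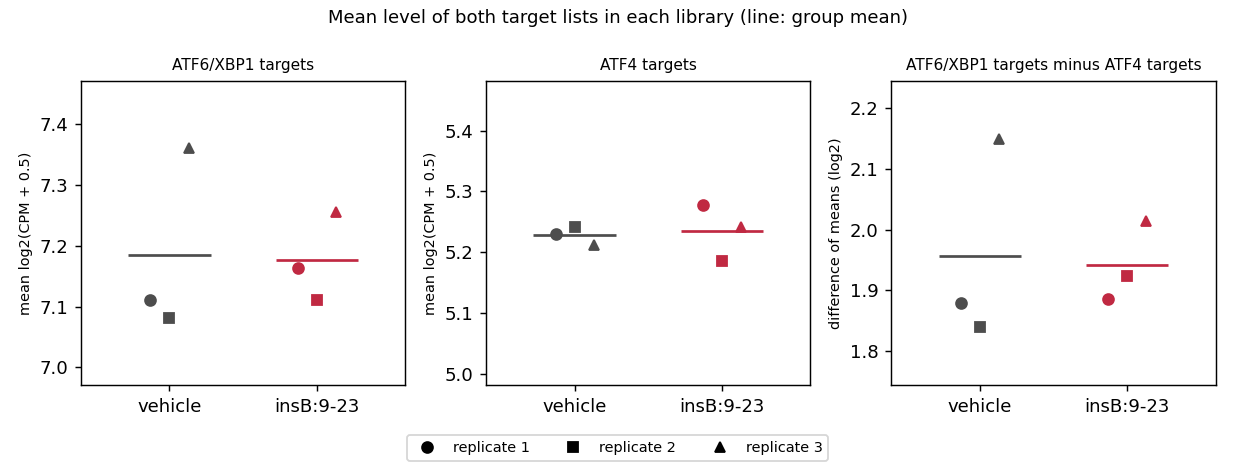
Mean log2(CPM + 0.5) of the 19 ATF6/XBP1 targets and the 12 ATF4 targets, and their difference (y axes, each spanning 0.5 log2 units), by group (x axes) with replicates as symbols and group means as lines. The groups overlap in all 3 panels, and replicate 3 is the highest library of its group for the ATF6/XBP1 targets.

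High and low levels fell unevenly over the libraries. Of the 36 genes, 12 had their highest level in insB:9-23 replicate 3, which had the largest acinar share, and 10 in vehicle replicate 3. The lowest level fell in insB:9-23 replicate 2 for 13 genes, the library with the largest share of B and plasma cell markers. Of 48 other genes linked to ATF4, 21 were highest in insB:9-23 replicate 3 and 10 lowest in replicate 2. Of 45 other genes of ER folding and degradation, 6 and 8 were. These counts were not taken over all genes tested, so they are not read as particular to the 36 genes. In the fit with that acinar covariate the median log2 folds were -0.098 for ATF6/XBP1 targets and -0.053 for ATF4 targets. The median over all genes in that fit was 0.007. Beyond this the part of cell make-up in the levels was not tested.

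Other genes of the pathways, 120 tested in 3 lists, gave 0 past the edgeR test at an adjusted p of 0.05, and 10 had an unadjusted p below 0.05 (8.33%; 2 higher and 8 lower), where 5.55% of all genes did (2.74% higher, 2.81% lower). The 45 other genes of ER folding and degradation had 4 of these (8.89%), all lower. They were Txndc5, a disulfide isomerase (158 ± 3.15 to 137 ± 0.518 CPM), Edem3 (80.0 ± 3.18 to 65.8 ± 6.72 CPM), Wfs1, the wolframin gene of beta cells (141 ± 5.14 to 122 ± 9.18 CPM), and Pdia5 (27.2 ± 2.64 to 21.6 ± 2.92 CPM; SD, n = 3, edgeR adjusted p = 0.855 for Txndc5 and 0.881 for the others). In that list 11 of 45 genes (24.4%) had groups that did not overlap with insB:9-23 lower, where 7.12% of all genes did, and 1 had them higher, where 6.4% of all genes did. The folds of those 11 were small, from -0.10 to -0.39 on the log2 scale. Over the whole list of 45, 25 log2 folds were below 0 and the median was -0.04. Of the beta cell markers, 9 of 13 tested were below 0, with a median of -0.12 and no unadjusted p below 0.05. By the measure of overlap, 4 of those 13 had groups that did not overlap with insB:9-23 lower, and 0 had them higher. Ero1lb is in both lists. The part of beta cell markers in the result was not tested.

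Among 27 other regulators, Eif2ak2, the kinase PKR, was at 31.3 ± 7.11 and 19.2 ± 3.84 CPM (SD, n = 3; edgeR adjusted p = 0.881). Among 48 other ATF4-linked genes, 2 were higher and 3 lower at an unadjusted p below 0.05 (10.4%, beside 5.55% of all genes). Ddit4 (REDD1), a brake on mTOR that also answers to low oxygen, was at 38.9, 43.2 and 43.2 CPM with vehicle, against 60.5, 64.2 and 64.1 CPM with insB:9-23. Its log2 fold was 0.59 ± 0.07 (SE), which missed the edgeR test (adjusted p = 0.154) and passed with DESeq2 (adjusted p = 4.54e-07). The lower ones were Xpot, a tRNA exporter, and the tRNA synthetases Yars and Eprs, with log2 folds of -0.21 ± 0.07, -0.31 ± 0.12 and -0.13 ± 0.05 (SE; edgeR adjusted p = 0.881 for each). The 12 synthetases of the list, grouped after their values were seen, had a median of -0.03, with 7 below 0 and 5 above.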

How the data were processed

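Each of the 6 deposited tables holds the authors' unnormalized read counts by Ensembl gene ID for 1 library, per the file headers. For the build GRCm38, HISAT, DESeq 1.8.3 and featureCounts 1.5.0-p3 are named in the submitters' processing notes, without roles. Libraries were made with a stranded kit, per the labels' protocols, and the strand setting of the counting is not given in the sources used here. Symbols, exon lengths and positions came from GENCODE M21. Counts were tested in R 4.3.3 with edgeR 4.0.16 (filterByExpr, TMM scaling, robust quasi-likelihood F test) over all 17016 genes kept, with Benjamini-Hochberg adjustment over all of them and a threshold of 0.05. SE is the log2 fold divided by the root of F, and 95% intervals use the moderated degrees of freedom.

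The members, the lists and the tests were chosen with earlier results of these data known. All 36 members are named; from each other list up to 4 genes with the smallest unadjusted p below 0.05 are named, and libraries are given singly for the sensors, Hspa5, Xbp1, Atf4, Ddit3 and the 10 members with the smallest p, and for others where a library stood apart. Xbp1 and Atf4 were placed with the regulators. Lists are described by counts and medians, without a set test. Alternatives were other scalings, DESeq2 1.42.0, limma 3.58.1 (voom), other filters, the replicate number as a block, the acinar marker level as a covariate, other list membership and each library left out.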

Additional observations from a re-analysis of the deposited data

How the results depend on the processing

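No member passed an adjusted p of 0.05 in any of 16 alternatives. At an unadjusted p below 0.05 there were 0 members by library totals alone, 4 with limma-voom, 1 (Chac1) with the replicate block, 1 (Ddit3) with the acinar covariate, and 2 to 4 with each library left out. The labels do not say whether libraries with the same replicate number belong together. Correlations of deviations between them were -0.0322, -0.0689 and -0.0054, which cannot exclude a pairing. The block left 0 of all genes at an adjusted p of 0.05, so its smaller count of members is not read as a weaker effect. DESeq2 called 1 other pathway gene (Ddit4). The median of ATF6/XBP1 targets was -0.183 and that of ATF4 targets -0.143 by library totals alone, which moved all genes. The ATF4 median was -0.053 with the acinar covariate, where the median over all genes was 0.007. With each library left out the ATF6/XBP1 median ran from -0.063 to 0.068, the ATF4 median from -0.024 to 0.065 and their difference from -0.089 to 0.092. That difference was -0.064 with Xbp1 added and Herpud1 and Dnajc3 left out, and -0.023 over members of at least 5 CPM. Over members within 2-fold among the libraries, a choice made after the data were seen, it was -0.105. This last choice also removes targets with large folds in either direction (Chac1 and Derl2 lower, Derl3, Dnajb9 and Dnajc3 higher), besides Sel1l and Derl1. It says nothing about stability.

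The sign changed for these log2 folds, none of them called. By library totals alone they were -0.124 for Asns, -0.126 for Creld2, -0.134 for Edem1, -0.009 for Edem2, -0.136 for Eif2ak3, -0.149 for Ern1, -0.031 for Hspa5, -0.073 for Mthfd2, -0.110 for Sel1l, -0.075 for Trib3 and -0.135 for Xbp1. With the acinar covariate they were -0.077 for Asns, -0.060 for Creld2, -0.392 for Dnajb9, -0.116 for Edem1, -0.067 for Eif2ak3, -0.111 for Ern1, 0.073 for Manf, -0.028 for Mthfd2, -0.106 for Phgdh, 0.025 for Ppp1r15a, -0.344 for Sel1l and -0.124 for Xbp1. Sesn2 was at 0.011 and Shmt2 at 0.013 with weighted limma-voom, and Sesn2 at 0.000 with upper quartile scaling. The cause was not tested.

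With each library left out, ranges that crossed 0 were -0.062 to 0.131 for Ern1, -0.071 to 0.119 for Xbp1, -0.030 to 0.115 for Eif2ak3, -0.047 to 0.334 for Hspa5, -0.316 to 0.621 for Dnajb9, -0.299 to 0.031 for Dnajb11, -0.069 to 0.033 for Sdf2l1, -0.032 to 0.096 for Creld2, -0.438 to 0.190 for Manf and -0.059 to 0.165 for Edem1. The others were -0.321 to 0.362 for Sel1l, -0.172 to 0.055 for Syvn1, -0.575 to 0.075 for Derl1, -0.055 to 0.171 for Trib3, -0.059 to 0.140 for Asns, -0.096 to 0.072 for Sesn2, -0.020 to 0.435 for Phgdh, -0.121 to 0.109 for Shmt2, -0.137 to 0.026 for Slc7a5 and -0.065 to 0.032 for Ppp1r15a. With 3 libraries a group, the intervals of members such as Atf6, Dnajc3 and Sel1l stayed wide. The parts of counting error and of variation between libraries were not tested.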

Other observations

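Atf3, a stress factor downstream of ATF4 that other signals also induce, was chosen after its values were seen. It was at 38.3, 37.2 and 37.6 CPM with vehicle, against 46.4, 43.5 and 117 CPM with insB:9-23, so all 3 treated libraries were higher and replicate 3 stood apart (log2 fold 0.87 ± 0.41, SE; edgeR adjusted p = 0.881). Nupr1, a stress-induced gene that acinar cells express strongly, also chosen after its values were seen, was highest in the same library, at 444 CPM against 207 to 302 CPM in the other 5. Fgf21 and Gdf15, secreted products of the integrated stress response, were at 4.02 ± 0.607 and 1.64 ± 0.719 CPM in vehicle and at 4.27 ± 2.53 and 1.46 ± 0.652 CPM after insB:9-23 (SD, n = 3). Ero1lb, the oxidase that serves insulin folding, was at 1986 ± 183 and 1751 ± 138 CPM (SD, n = 3; edgeR adjusted p = 0.881), more counts than any of the 36 genes drew.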
